A study of Mus musculus with 2 samples.

Results

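The cells described here are hindbrain neural progenitors that lack Otx2, taken from single-cell RNA sequencing of mouse heads at E11.5. They were chosen by their own counts of unique molecular identifiers (UMIs, 1 per captured transcript): at least 3 UMIs of Sox2, Sox3 and Hes5 together, at least 1 of Gbx2, Hoxa2, Hoxb2, Hoxa3, Hoxb3 and Hoxb4 together, none of Otx2, Fgf8, Fgf17, Sox10 or Lmx1a, and low limits on genes of neurons (Elavl3 and Stmn2, at most 2), of mesenchyme (Prrx1, Prrx2 and Twist1, at most 1) and of choroid plexus (Ttr, under 10). This rule found 158 cells among the 11212 that passed the quality limits, 82 in the control library and 76 in the mutant library. Both libraries held sorted eGFP+ cells of heads carrying Wnt1CRE and r26 mTmG/mTmG, in which Cre drives a membrane GFP in cells with a history of Wnt1 expression, that is in cranial neural crest and in the Wnt1-expressing part of the brain. The control was Tfap2a wt/flox; Tfap2b wt/flox, so it too lacked 1 copy of each gene in these cells, and the mutant was Tfap2a flox/flox; Tfap2b flox/flox. Tfap2a and Tfap2b encode AP-2 transcription factors. Each library pooled 2 sibling embryos, and heads were cut just below the second pharyngeal arch and the otic vesicle.

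The members were compared between the libraries on genes that the rule did not use. With 1 library per genotype no test of the genotype was possible, and the intervals below are exact 95% intervals that cover counting error only. Xist, the transcript of the inactive X chromosome, had 1280 UMIs in the control members and 0 in the mutant members, whereas the Y-linked genes Ddx3y and Eif2s3y had 0 in the control and 34 and 39 UMIs in the mutant. Genotype, embryo sex and the exact level of the cut therefore cannot be told apart in any ratio of mutant over control. Depth was matched: the members held 918887 UMIs in the control and 865451 in the mutant, with medians of 10539 and 10625 per cell. No member was called a doublet by Scrublet, and the libraries shared 5 barcodes among the cells kept. The absence of Otx2 and the presence of Gbx2 and Hoxb3 were fixed by the rule, so their levels only describe the selection. Levels are given as UMIs per 1000000 UMIs of the pooled cells of a population (CPM). Gbx2 stood at 32.6 CPM in the control members and 50.8 in the mutant members, Hoxb3 at 83.8 and 87.8, and Hes5 at 822 and 749, and Otx2 was at 0 in both.

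The hindbrain is patterned along its length by Hox genes, whose members with higher numbers begin to be expressed further caudally, and its boundary with the midbrain forms where Gbx2 meets Otx2. Its progenitors line the ventricle, express Sox2 and Sox3, and are held in the dividing state by Notch signalling through Hes5. From dorsal to ventral they form domains marked by transcription factors, with the Atoh1-expressing rhombic lip at the dorsal edge, beneath the roof plate. Progenitors that commit to a neuronal fate pass through a short phase of proneural gene expression in which Neurog1, Neurog2, Dll1, Hes6, Btg2 and Gadd45g are on, and only later express Elavl and Stmn genes.

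Members made up 1.46% of the control cells kept (95% interval 1.16 to 1.81) and 1.36% of the mutant cells (1.07 to 1.70), a difference of -0.0975 percentage points (-0.549 to 0.353). Other neural populations defined by the same gate took a larger share in the mutant library. Midbrain progenitors (Otx2-positive) numbered 287 and 547, a difference of 4.69 points (3.71 to 5.67), and isthmic progenitors (Fgf8- or Fgf17-positive) numbered 36 and 88, a difference of 0.935 points (0.540 to 1.34). The hindbrain members consequently formed 14.8% of all cells of the neural gate in the control (11.93 to 18.004) and 8.35% in the mutant (6.64 to 10.3). Midbrain progenitors formed 51.7% of the cells of that gate in the control and 60.1% in the mutant. The shares of the cells kept are of sorted cells, and mesenchyme made up 57.3% of them in the control and 41.2% in the mutant. Shares of 1 whole do not vary independently, and what set them apart was not tested.

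**Figure D1:**
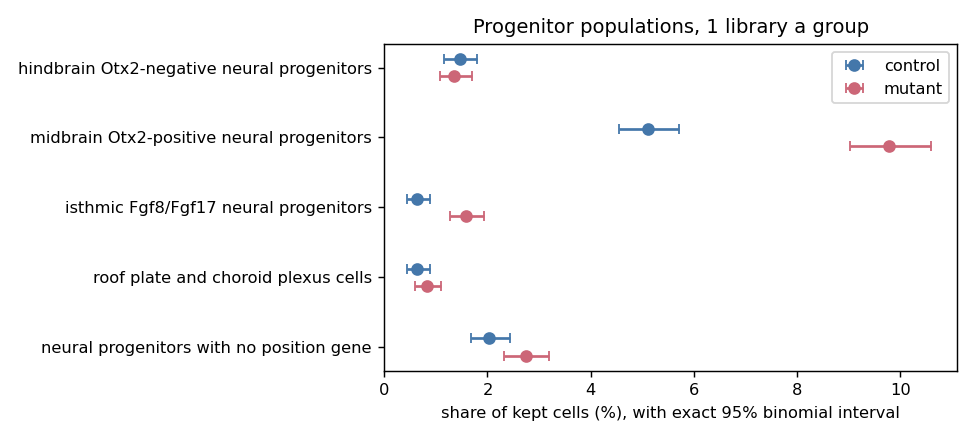
Share of the cells kept, in percent, that each neural population took in the control and mutant libraries, with bars for the exact 95% binomial interval. Hindbrain members sit at 1.46% and 1.36% with overlapping intervals, whereas midbrain progenitors sit at 5.10% and 9.79%.

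Few cells lay near the limits on progenitor genes. In the control 4 members and in the mutant 2 members had exactly 3 UMIs of Sox2, Sox3 and Hes5, and 2 and 4 further cells had 2 UMIs and were left out. The position limit was closer to the cells: 22 control members and 20 mutant members had a single UMI of the position genes, and 114 and 153 neural progenitors had none of any position gene and could not be placed. The limit on Elavl3 and Stmn2 left out fewer cells than the position limit. At 2 UMIs, just inside it, were 12 control members and 13 mutant members, and outside it were 37 control cells and 62 mutant cells that met every other criterion.

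Against the Otx2-positive midbrain progenitors of the same library, the hindbrain members carried a dorsal hindbrain profile. The following ratios are descriptions of a selected population. They are log2 ratios of hindbrain over midbrain CPM, each taken from the library in which the ratio lay nearer to 0. Over 8832 genes with at least 100 UMIs in the compared cells, 2.75% were at least 1.5-fold higher in the hindbrain members in both libraries. Another 4.48% were at least 1.5-fold lower in both. No interval entered these shares. Atoh1, the proneural factor of the rhombic lip, headed the list at 8.52. It counted 186 UMIs in the control members and 120 in the mutant members, against 2 and 1 in midbrain progenitors. Among other dorsal genes, Msx3 stood at 6.69, Olig3, a factor of the dorsal hindbrain progenitor domains, at 5.40, and Msx2, a target of BMP signalling, at 4.04. Barhl1, a homeobox gene of Atoh1-lineage neurons, stood at 3.81. Further Hox genes that the rule did not use were high as well, Hoxd4 at 6.66, Hoxd3 at 5.29 and the antisense transcript Hoxb3os at 7.14, as were Maf (4.71), Casz1 (4.41), Dach2 (3.84) and Gm29478 (3.63).

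The genes lower in hindbrain members included factors of the midbrain. Mab21l2 stood at -5.84 and Mab21l1 at -3.94, and Otx1 and Tal2, factors of the midbrain and forebrain, had no UMI in any member. Itm2a (-3.82), Hs3st3b1 (-3.65), Shisa3 (-3.52) and Runx1t1 (-3.47) followed. Of the dorsal list of 27 genes, 15 were measured well enough for this comparison and 8 were above and 4 below midbrain progenitors. Of the list of intermediate and ventral genes, 6 were measured and all 6 were below. In the list of 14 forebrain genes, 9 had no UMI in any member.

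**Figure D2:**
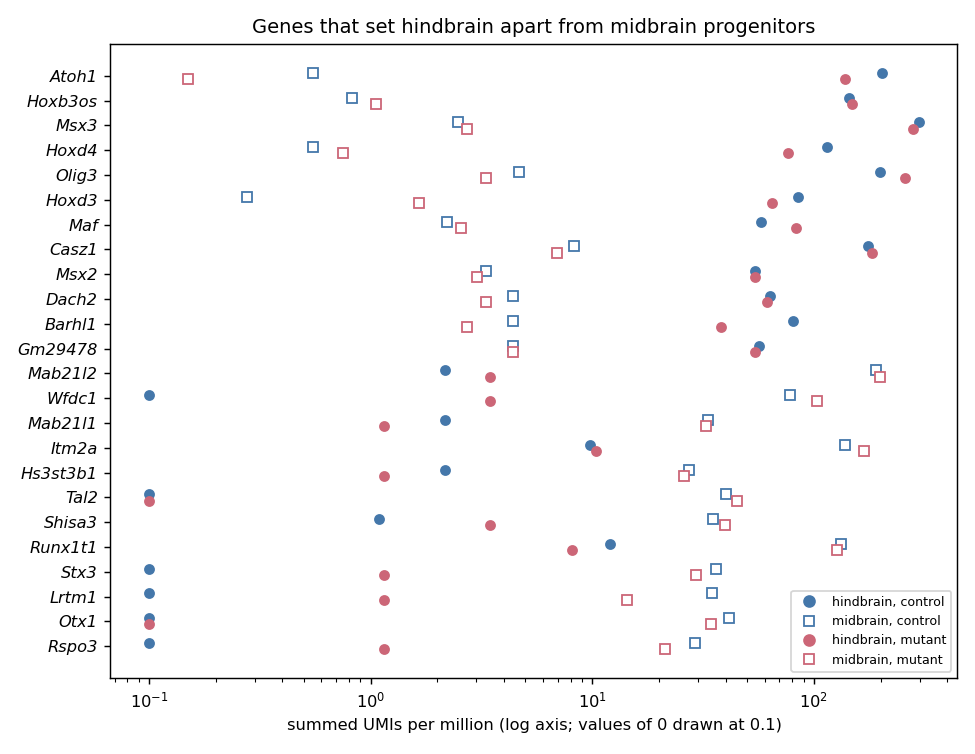
Levels (CPM on a log axis, 1 value per library, no replicates, values of 0 drawn at 0.1) of the 12 genes highest and the 12 lowest in hindbrain members (filled points) against midbrain progenitors (open squares), with control in blue and mutant in red. Atoh1, Olig3 and Msx3 stand high in both hindbrain groups and under 5 CPM in midbrain progenitors, and the lower 12 genes show the opposite order.

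The dorsal profile was carried by many cells rather than a few. After each cell was thinned to 5000 UMIs, which left 80 control members and 75 mutant members, Olig3 was detected in 51.3% and 53.3% of them and Msx3 in 65.0% and 58.7%. Atoh1 was detected in 24 of the 80 control members (interval of the share 20.3% to 41.3%) and 15 of the 75 mutant members (11.6% to 30.8%). In midbrain progenitors thinned to the same depth Atoh1 was found in 0 of 285 control cells and 0 of 540 mutant cells, with upper limits of 1.29% and 0.681%. The sort took cells with a history of Wnt1, a gene of the dorsal midline of the hindbrain, so the share of dorsal cells here is not that of the whole hindbrain. Along its length, Atoh1 stood at 5.44 CPM in control members with Gbx2 alone, 98.0 in those reaching Hoxa2 or Hoxb2 and 311 in those with Hoxa3, Hoxb3 or Hoxb4, and at 32.6, 110.3 and 184 CPM in the mutant. Wnt1 itself had no UMI in the 16 control and 18 mutant members with Gbx2 alone. Within the dorsal list 9 genes reached 100 UMIs and the median log2 ratio of mutant over control was 0.0591. None was called at 1.5-fold, a limit that 1.67% of all genes tested passed as higher and 1.28% as lower. Atoh1 itself stood at 202 CPM in the control and 139 in the mutant, and Olig3 at 198 and 259, a log2 ratio of -0.55 (-0.89 to -0.21) and 0.39 (0.10 to 0.68), both short of 1.5-fold with intervals that left out 0. Pax3 counted 261 UMIs in the mutant against 266, and Zic1 341 against 315. Msx1, a target of BMP signals, counted 240 against 194, a ratio of 0.39 (0.11 to 0.67), and was detected in 43.8% of thinned control members and 62.7% of thinned mutant members.

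Neuronal markers were present in each member, with a summed level of 25 genes never under 355 CPM in the control or 340 in the mutant, and pooled levels of 1967 and 1493 CPM against 491 and 694 in mesenchyme. Markers of non-neural types were scarcer. Of 25 mesenchyme genes only Msx1, which dorsal neural cells also express, reached 100 UMIs, and Cxcl12, Snai2, Fli1 and Dlx6 were at 0 in both libraries. The summed level of that list ran from 0 to 1131 CPM per cell in the control (median 157) and from 0 to 2133 in the mutant (median 235). Among glial and crest genes Cdh19 and Ets1 were at 0, and Fabp7, which neural progenitors express, supplied most of the counts. The roof plate and choroid plexus list gave medians of 289 and 423 CPM per cell, with Wnt1 and Msx1 as its main members and Aqp1 and Clic6 at 0. The endothelial, epithelial and blood lists held 1, 34 and 7 UMIs in the control members and 5, 27 and 0 in the mutant members.

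Of 3115 genes with at least 100 UMIs over the members of both libraries, 52 were called higher in the mutant members (1.67%) and 40 were called lower (1.28%). A gene was called when it differed by at least 1.5-fold with an interval that left out 0. The median log2 ratio over all genes tested was 0.0106. Some of the most extreme genes were as far apart in other populations. Arhgap6 and the overlapping antisense transcript Gm15261, on chromosome X, had 1 and 0 UMIs in the control members and 119 and 296 in the mutant members, and were as far apart in mesenchyme. Hccs, also on chromosome X, stood at 0.94 in the members. AC149090.1 was lower in the members (-0.82) and likewise in midbrain progenitors (-1.07) and mesenchyme (-0.83) of the mutant. Bnip3, a mitophagy receptor, was 0.76 higher in the members, 0.55 in midbrain progenitors and 0.84 in mesenchyme. Others were not as far apart in midbrain progenitors, such as Pes1, a ribosome biogenesis factor, at -1.09 in the members and 0.09 there, and Tprgl at 1.00 and 0.13. In progenitors with no position gene Pes1 was lower too, at -0.56 (-1.07 to -0.05), whereas Tprgl stood at 0.03.

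The higher genes included Sox9 and Sparc, which stand on the lists, and the nuclear factors Nfia and Nfib, which stand on none and were named after their values were seen. Sox9, a transcription factor needed for the acquisition of glial competence, counted 198 UMIs in the control members and 286 in the mutant members. Its level was 215 CPM (187 to 248) in the control and 330 CPM (293 to 371) in the mutant, and the intervals did not overlap. The log2 ratio of mutant over control was 0.62 (0.35 to 0.89), against 0.21 in midbrain progenitors, 0.06 in isthmic progenitors, 0.05 in roof plate and choroid plexus cells, 0.04 in progenitors with no position gene and -0.15 in mesenchyme. Thinned to equal depth, Sox9 was detected in 50.0% of control members (38.6 to 61.4) and 73.3% of mutant members (61.9 to 82.9), whereas midbrain progenitors gave 31.9% and 31.7%. The higher level was thus spread over more cells.

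Sparc, a secreted matricellular protein, was higher as well. It counted 163 UMIs in the control members and 270 in the mutant members, or 177 CPM and 312 CPM. The log2 ratio was 0.81 (0.53 to 1.10). Sparc was higher in the mutant in the other populations too, by 0.19 in midbrain progenitors, 0.35 in isthmic progenitors, 0.36 in progenitors with no position gene, 0.46 in mesenchyme and 1.15 (0.64 to 1.69) in roof plate and choroid plexus cells. It was detected in 41.3% of thinned control members (30.4 to 52.8) and 72.0% of thinned mutant members (60.4 to 81.8). Its level in mesenchyme was 99.1 CPM in the control and 137 in the mutant. Free RNA from other cells was not measured here, and its part in the Sparc counts was not tested.

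Nfib stood at 102 CPM in the control members and 162 CPM in the mutant members, a log2 ratio of 0.66 (0.27 to 1.05). Nfia stood at 82.7 and 127 CPM, a log2 ratio of 0.62 (0.18 to 1.06). Both genes had the opposite direction in midbrain progenitors, with -0.26 (-0.45 to -0.07) for Nfib and -0.53 (-0.97 to -0.09) for Nfia. The difference between the populations was not tested. Under a stricter gate, which asked for at least 5 UMIs of the progenitor genes and none of the neuronal and mesenchymal genes and left 32 control cells and 30 mutant cells, Sparc stood at 1.03 and Sox9 at 0.45, short of 1.5-fold, whereas Nfia stood at 0.26 (-0.38 to 0.90) and Nfib at 0.04 (-0.51 to 0.59).

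**Figure D3:**
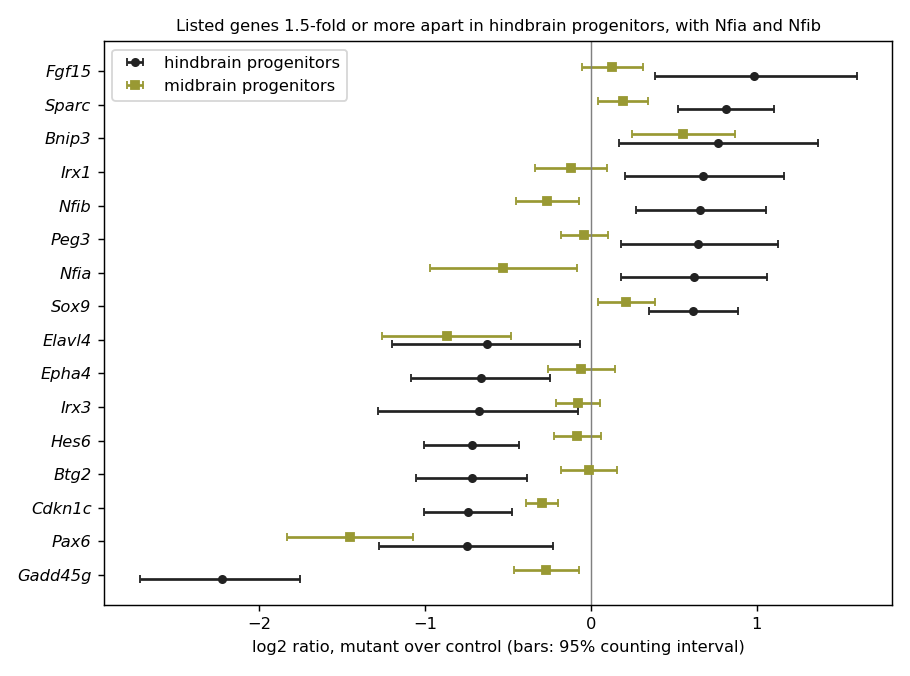
Log2 ratio of mutant over control, with 95% intervals, for the called genes of the lists, with Nfia and Nfib, in hindbrain members (black) and in midbrain progenitors (green). Sparc, Sox9, Nfia and Nfib lie above 0 in the hindbrain members and Gadd45g, Hes6 and Btg2 below 0, and Nfia and Nfib lie below 0 in midbrain progenitors.

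The values were also taken along the length of the hindbrain, without a test of the difference between levels. The members were split by the most caudal position gene of the rule that was detected. They fell into cells with Gbx2 alone (16 control and 18 mutant), cells reaching Hoxa2 or Hoxb2 (18 and 9) and cells with Hoxa3, Hoxb3 or Hoxb4 (48 and 49). These genes chose the cells, so the split is a description. Hoxd4, which the rule did not use, still counted 13 control and 4 mutant UMIs in the Hox2 group. Sparc was at 151 CPM in the control and 361 CPM in the mutant in the most caudal group, a log2 ratio of 1.26 (0.88 to 1.65), and its ratio was 0.14 in cells with Gbx2 alone and 0.11 in the Hox2 group. Sox9 stood at 213 and 330 CPM in the most caudal group, 220 and 254 in the Hox2 group, and 217 and 363 in cells with Gbx2 alone. Nfib turned to -0.33 in the Hox2 group, which holds 9 mutant cells. The share of the Hox2 group among the members was 21.95% in the control and 11.8% in the mutant, a difference of -10.1 points whose interval (-22.3 to 2.53) held 0.

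Among the genes lower in the mutant members, were genes of neuronal commitment. Of the 18 genes on the proneural and commitment list, 4 reached 100 UMIs and 3 of them, Gadd45g, Hes6 and Btg2, were called lower, with a median log2 ratio of -0.7175 over the 4. Over all 3115 genes tested, 1.28% were called lower. The fourth, Mycn, counted 114 UMIs in each library. Gadd45g, a stress- and differentiation-associated gene that is switched on in committing progenitors, counted 223 UMIs in the control members and 45 in the mutant members. Its level was 243 CPM (212 to 277) against 52.0 CPM (37.9 to 69.6), a log2 ratio of -2.22 (-2.72 to -1.76). Hes6, which opposes Notch target repression and promotes neurogenesis, counted 279 and 160 UMIs, a ratio of -0.72 (-1.01 to -0.43). Btg2, an antiproliferative gene of neurogenic divisions, counted 208 and 119, a ratio of -0.72 (-1.06 to -0.39). In midbrain progenitors these ratios were -0.27, -0.08 and -0.01. Under the stricter gate Gadd45g stood at -1.99 and Hes6 at -0.81, whereas Btg2 stood at -0.22 (-0.82 to 0.37).

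The promoters of Gadd45g and Hes6 are shown because they had the lowest ratio and the most UMIs of the 3 genes lower in the mutant, and because AP-2 factors are known to bind the palindrome GCCNNNGGC. Each run is the 250 bases before the RefSeq start on build GRCm38.p6, written 5′ to 3′ on the gene's strand, with any match to GCCNNNGGC in capitals. The motif is its own reverse complement, so 1 search covers both strands.
Gadd45g, chr13:51846425-51846674 (+): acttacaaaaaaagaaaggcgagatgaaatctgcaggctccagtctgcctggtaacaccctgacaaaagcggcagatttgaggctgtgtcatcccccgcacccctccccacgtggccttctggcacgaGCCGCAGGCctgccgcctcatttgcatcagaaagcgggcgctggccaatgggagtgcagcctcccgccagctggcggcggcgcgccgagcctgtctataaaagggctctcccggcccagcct
Hes6, chr1:91414039-91414288 (-): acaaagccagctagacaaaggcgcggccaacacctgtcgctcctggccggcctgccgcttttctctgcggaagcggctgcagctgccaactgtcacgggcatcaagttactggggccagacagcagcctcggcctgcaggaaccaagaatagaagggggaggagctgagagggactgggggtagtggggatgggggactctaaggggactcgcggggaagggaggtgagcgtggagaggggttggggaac
The Gadd45g promoter held 1 match, whose first base lay 122 bases before the start, at position -122, and the Hes6 window held 0. RefSeq lists 2 promoters for Hes6. The window shown is the one at the annotated start of the gene, and the other is not reported here. For comparison, 13.7% of 32851 mouse promoters of the same length held the motif, and so did 22% of those of the genes tested here. A match is a description of letters, and neither result says whether AP-2 bound there. Tfap2a itself had 1 UMI in the control members and 5 in the mutant members, and Tfap2b had 7 and 35, of which 29 of the mutant UMIs were in 1 cell. These counts come from 3′ tags and do not check the deletion.

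The lower level of Gadd45g came from few cells. Its UMIs were found in 20 of 82 control members and 12 of 76 mutant members, and the 5 highest cells held 59.6% of them in the control and 77.8% in the mutant. Most lay in the most caudal group, 214 of the 223 control UMIs and 42 of the 45 mutant UMIs. After thinning, Gadd45g was detected in 16 of 80 control members (interval of the share 11.9% to 30.4%) and 6 of 75 mutant members (2.99% to 16.6%), against 38 of 285 and 65 of 540 midbrain progenitors.

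Several other commitment genes had fewer than 100 UMIs and were not called, and their counts are given as values. Those named here were chosen after their values were seen, and each had fewer UMIs in the mutant members. The whole list of 18 genes held 1135 UMIs in the control members and 585 in the mutant members. Its genes that are not named here were nearly level in their summed UMIs. Neurog1 had 53 UMIs in the control members and 8 in the mutant members, Neurog2 38 and 8, Dll1, the Notch ligand of committing cells, 61 and 31, Neurod1 16 and 1, Nhlh1 12 and 0, and Insm1 31 and 16. The Notch receptor and target genes did not share that order: Notch1 had 160 and 187 UMIs, Nrarp 146 and 162 and Dtx4 132 in the mutant against 111 in the control. Of 24 Notch pathway genes 5 were tested, none was called, and the median log2 ratio was 0.2365. No call among 5 genes is near the share over all genes tested, 1.67% higher and 1.28% lower.

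The ratios of the commitment genes changed with the cells that entered, by position along the hindbrain and by the limit on neuronal genes. Neither was tested as a cause of the lower values. The first concerns position along the hindbrain. Hoxa5, Hoxb5 and Hoxb6, which begin further caudally than the genes of the rule, together counted 117 UMIs in the control members and 13 in the mutant members. At least 1 such UMI was present in 21 of 82 control members (25.6%, 16.6 to 36.4) and 8 of 76 mutant members (10.53%, 4.66 to 19.7). The cells with these UMIs held 152 of the 223 Gadd45g UMIs in the control and 7 of 45 in the mutant. Leaving these cells out, here and below, was a choice made after the values were seen. Without them the log2 ratio of Gadd45g was -1.09 (-1.70 to -0.50), that of Hes6 was -0.16 (-0.52 to 0.21) and that of Btg2 was -0.26 (-0.68 to 0.15). The ratio of Sparc was then 0.69 (0.38 to 1.01) and that of Sox9 0.52 (0.23 to 0.82).

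The second concerns the limit on neuronal genes, whose changes were also chosen after the values were seen. With up to 5 UMIs of Elavl3 and Stmn2 allowed, 100 control cells and 113 mutant cells entered and the log2 ratios were -0.95 for Gadd45g, -0.28 for Hes6 and -0.31 for Btg2. With no limit, 119 and 138 cells entered and Gadd45g stood at -0.31. Sparc was 0.87 and 0.86 and Sox9 0.58 and 0.60 under the same limits, close to their values over the members. Split by their neuronal UMIs, cells with none had 201 CPM of Gadd45g in the control and 33.7 in the mutant, cells with 1 or 2 had 280 and 66.7, cells with 3 to 5, outside the members, had 662 and 404, and cells above 5 had 879 and 1015. Hes6 stood at 217 CPM in the control and 124 in the mutant in cells with none, 381 and 233 in cells with 1 or 2, 368 and 413 in cells with 3 to 5, where the order turned, and 832 and 607 in cells above 5. Btg2 turned in the same class, at 216 and 269 CPM. Sox9 was higher in the mutant in each of the 4 classes, and so was Sparc. The summed level of 25 neuronal markers per member had a median of 1643 CPM in the control and 1507 in the mutant, with highest values of 10154 and 5957, and 1 of its 5 tested genes, Elavl4, was called lower, at -0.62, beside -0.87 in midbrain progenitors.

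**Figure D4:**
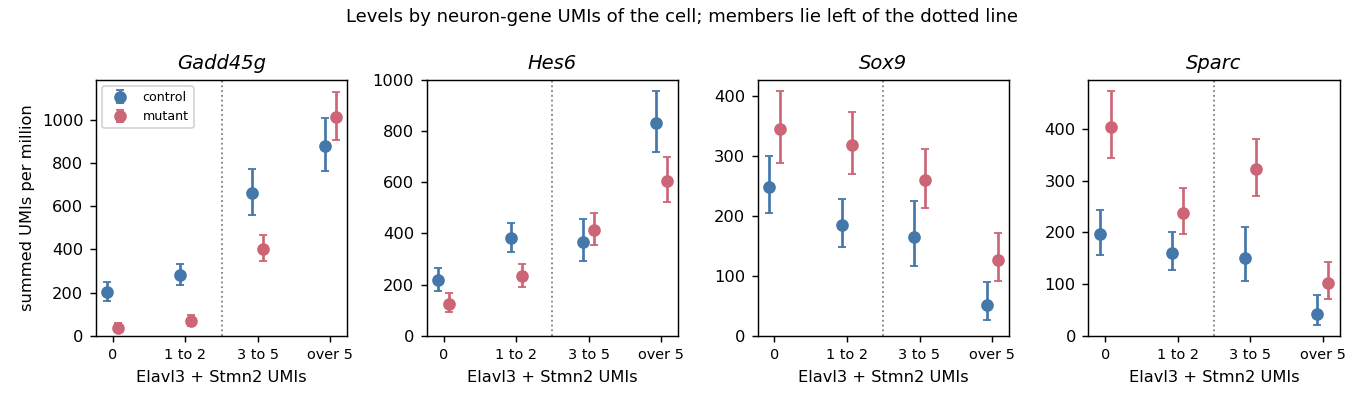
Levels (CPM, with 95% Poisson intervals) of Gadd45g, Hes6, Sox9 and Sparc in progenitors split by their UMIs of Elavl3 and Stmn2, control in blue and mutant in red, with the members left of the dotted line. The separation of Gadd45g between the libraries closes in cells above 5 UMIs, at 879 and 1015 CPM, while Sox9 and Sparc stay higher in the mutant in each class.

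**Figure D5:**
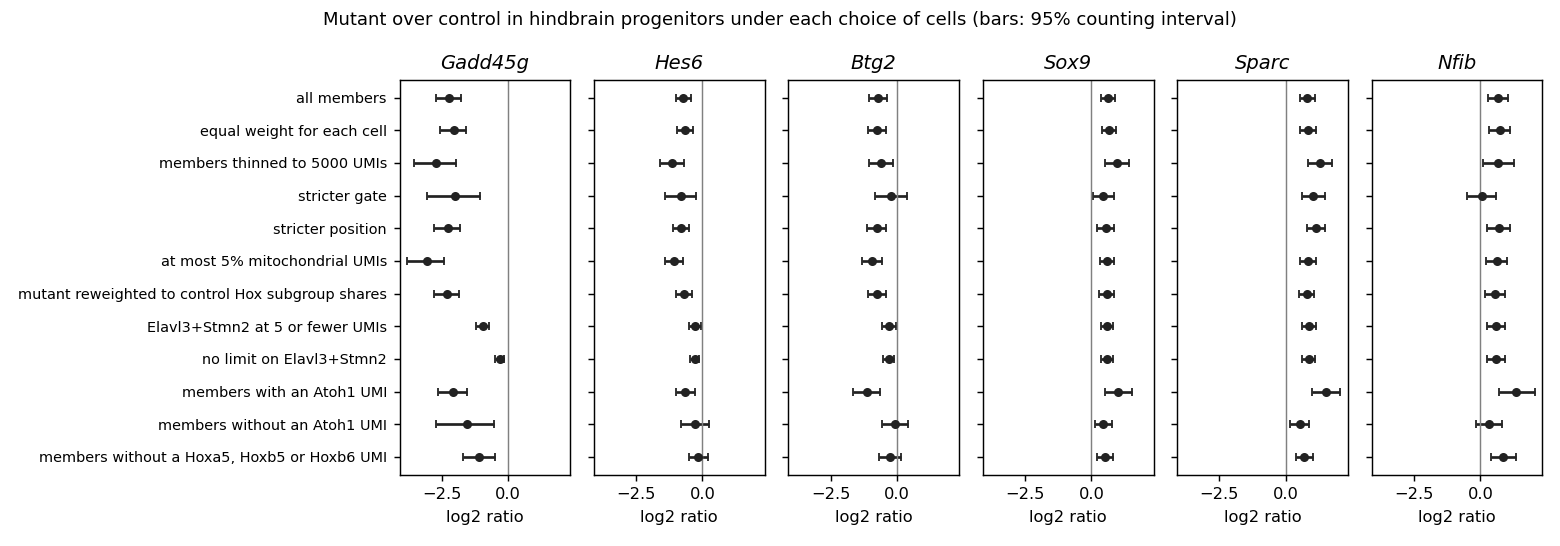
Log2 ratio of mutant over control, with 95% intervals, for 6 genes (panels) under each choice of members (rows). Sparc and Sox9 keep their sign in each choice shown, and Gadd45g moves from -2.22 over all members to -1.09 without cells holding a Hoxa5, Hoxb5 or Hoxb6 UMI and to -0.31 with no limit on Elavl3 and Stmn2.

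Along the anteroposterior axis, 11 of 25 listed genes were tested, with a median of -0.325. Of these, 1 was called higher and 2 lower, beside 1.67% and 1.28% of all genes tested. Irx1, a homeobox gene, counted 63 and 95 UMIs (0.68), whereas Irx3 counted 66 and 39 (-0.67). Epha4, an ephrin receptor of hindbrain segments, counted 131 and 78 (-0.66), but turned to 0.28 in the most caudal group. Hoxd4 (105 and 66 UMIs) and Meis2 (356 and 225), a cofactor of Hox proteins, were both at -0.58, short of 1.5-fold, and Hoxd4 stood at 0.50 without the cells holding a Hoxa5, Hoxb5 or Hoxb6 UMI. Hoxa5 counted 80 and 13, Hoxb5 26 and 0 and Hoxb6 11 and 0.

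Among genes of the midbrain-hindbrain boundary, Fgf15, an FGF ligand of the neural tube, counted 37 UMIs in the control members and 69 in the mutant members, a ratio of 0.99 (0.39 to 1.60), against 0.13 in midbrain progenitors, and 0.32 (-0.66 to 1.31) under the stricter gate. Most of its UMIs, 26 of 37 in the control and 46 of 69 in the mutant, lay in the most caudal group, and 2 and 15 in cells with Gbx2 alone. The 5 highest cells held 54.1% and 59.4% of them. Fgf15 was the only called gene among the 2 tested of 15 boundary genes. Cnpy1, which acts in boundary FGF signalling, counted 22 and 50, under the minimum of 100, and stood at 103 and 223 CPM in the cells with Gbx2 alone. Of 19 FGF pathway genes 5 were tested and Fgf15 was again the 1 called. Fgfr1, Fgfr2 and Fgfr3 counted 63, 65 and 63 UMIs in the control and 41, 54 and 53 in the mutant.

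Pax6, which sets intermediate domains, was the called gene on the lower side of the neural progenitor list, with 89 and 50 UMIs (-0.75), and Sox9 the 1 on the higher side. It was lower in midbrain progenitors too, at -1.45. The list had 16 of 25 genes tested and a median of 0.216. Other members of it were close, with Nes, an intermediate filament of progenitors, at 256 and 285 UMIs, Notch1 at 160 and 187, and Ccnd1 at 258 and 279. Barhl1, on the other hand, had 74 and 33 UMIs, a ratio of -1.08, which stood at -0.46 without the cells holding a Hoxa5, Hoxb5 or Hoxb6 UMI. Barhl1 lies outside the lists.

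Signalling and housekeeping lists were nearly level in their median log2 ratios. Over all genes tested 1.67% were called higher and 1.28% lower, so no call in lists this short is near that share. None of 12 tested Wnt pathway genes was called (median 0.0138), and Wnt1, the driver of the Cre used to label these cells, counted 134 and 108 UMIs. None of 5 tested hedgehog genes (median 0.0864), 10 BMP and TGF-beta genes (0.0959), 3 retinoid genes (0.153), 24 S phase genes (0.0864), 30 G2/M genes (-0.0169) or 4 p53 and stress genes (0.170) was called. The BMP targets Id1 and Id3 counted 637 and 1204 UMIs in the control members and 690 and 1424 in the mutant members, and Crabp1, the retinoic acid-binding protein, 341 and 357. Of 10 tested glycolysis and hypoxia genes Bnip3 was called, of 8 matrix and adhesion genes Sparc higher and Epha4 lower, and of 8 imprinted genes Peg3 higher (65 and 96 UMIs, 0.65) and Cdkn1c, a cell-cycle inhibitor, lower (326 and 184 UMIs, -0.74). Cdkn1c stood at 0.15 without the cells holding a Hoxa5, Hoxb5 or Hoxb6 UMI, at 0.18 with up to 5 neuronal UMIs, and at 0.64 in the cells with Gbx2 alone. Both axon guidance genes tested, Slit2 and Unc5c, were level, with 93 and 98 and 90 and 89 UMIs.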

How the data were processed

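The authors sorted eGFP+ cells, prepared 3′ 10x Chromium libraries and deposited filtered matrices of raw UMI counts per gene and barcode, made with Cell Ranger 6.0.0 (per the file headers) on mm10; the submitters' processing notes also name Seurat 4.3.0 and bcl2fastq. Barcodes with 200 to 7500 genes and at most 10% mitochondrial UMIs were kept: 5625 of 6148 in the control and 5587 of 6063 in the mutant, with median depths of 13478 and 12234 UMIs. Members were selected by UMI limits, and their counts summed per library. A log2 ratio of mutant over control CPM has an exact 95% interval (conditional binomial). Shares have exact Clopper-Pearson intervals. PCR duplicates are removed by UMIs, and all intervals cover counting error only. Against a count of 0, a floor of 3 UMIs was used. Genes needed 100 UMIs over both libraries' members. The gate genes, Xist, Tsix and Y-linked and mitochondrial genes were left out of the calls. Haemoglobin genes were left out only of the ranking of named genes.

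The members and gene lists were chosen with earlier results of these data known. The named genes are Tfap2a and Tfap2b, the 12 highest and 12 lowest ratios whose interval left out 0, each list's called genes or otherwise its 3 genes with the most UMIs, and the 12 highest and 12 lowest ratios against midbrain progenitors; other genes were named after their values were seen. Doublets were called with Scrublet in scanpy 1.11.5 and made up 1.65% and 3.06% of the cells kept. Thinning drew 5000 UMIs per cell. Alternatives used TMM factors from edgeR 4.0.16, other UMI minimums, gates, weights and subgroups. The calculation was tested on simulated counts with counting error only, which leave out the gathering of UMIs in few cells. A few of the named genes are not reported here. Promoters were taken from RefSeq (GRCm38.p6), and no genome was used.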

Additional observations from a re-analysis of the deposited data

Results flagged for a closer look

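Some genes differed in opposite directions between hindbrain members and another progenitor population, each with an interval that left out 0. None of these differences between populations was tested. Nfib had a log2 ratio of mutant over control of 0.66 in hindbrain members and -0.26 in midbrain progenitors, and Nfia 0.62 and -0.53. Mis18a, a centromere gene, stood at 0.59 and -0.31. Rnf145 stood at -0.61 in hindbrain members, 0.27 in midbrain progenitors and 1.02 in isthmic progenitors.

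In isthmic progenitors, a group of 36 control cells and 88 mutant cells, several genes lower in the hindbrain members were higher in the mutant. Gadd45g stood at -2.22 in hindbrain members and 1.58 in isthmic progenitors, where it had 8 and 56 UMIs. It was also higher in the mutant in roof plate and choroid plexus cells (1.05, 0.21 to 1.95) and in progenitors with no position gene (0.54, 0.20 to 0.89). Hes6 stood at -0.72 and 0.67, Btg2 at -0.72 and 0.50, Elavl4 at -0.62 and 0.90, Cdkn1c at -0.74 and 0.70, with 1.24 (0.92 to 1.57) in roof plate and choroid plexus cells but -0.53 in progenitors with no position gene, and Miat, a long noncoding RNA of neural cells, at -0.74 and 0.63.

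Outside the main measurement, the Y-linked genes Ddx3y and Eif2s3y had 34 and 39 UMIs in the mutant members and 0 in the control members. Their share in the ratios of other genes was not tested.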

How the results depend on the processing

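The 52 higher and 40 lower calls among 3115 genes tested became 175 and 144 among 6919 at a minimum of 30 UMIs. At a minimum of 300 they were 3 and 6 among 1040. After thinning to 5000 UMIs they were 22 and 20 among 1334, of which 6 and 7 were also called over all members. A stricter gate, with 1223 genes tested, gave 26 higher, of which 3 were also among the 52, and 28 lower, of which 4 were also among the 40. With cells split after the data were seen, members with an Atoh1 UMI gave 31 and 18 among 910 genes tested. Those without gave 29 and 23 among 2212, so the counts of the 2 classes are not on an equal base. Against midbrain progenitors, thinning left 136 higher and 245 lower genes. The stricter gate moved the difference in the Hox2 share to -28.1 points, with an interval (-46.7 to -9.67) that left out 0, unlike that over all members. It moved the difference in the Hox3 or Hox4 share to 23.5 (-2.44 to 46.3). Dropping the neuronal limit, also chosen after seeing the data, moved the difference in the members' share to 0.355 points. TMM scaling gave 45 and 48. The direction turned in cells with Gbx2 alone for Nr2f6 (0.0801), Btg2 (0.16), Cdkn1c (0.64) and Elavl4 (0.58), and in the Hox2 group for Fundc2 (-0.15), Barhl1, Dpysl4 and Btg2 (0.43 each), Cotl1 (0.76), Ints11 (0.0835), Rassf4 (0.59), Nr2f6 (0.82), Pax6 (0.0010), Irx3 (0.0714), Hes6 (1.01), Cdkn1c (0.55), Nfib (-0.33) and Rnf145 (0.17). It also turned for Epha4 in the Hox3 or Hox4 group (0.28), Cdkn1c with up to 5 neuronal UMIs (0.18) and without Hoxa5, Hoxb5 or Hoxb6 (0.15), Peg3 with no neuronal limit (-0.32), Hist1h1e in members with an Atoh1 UMI (0.52) and Rnf145 after thinning (0.34). Fewer UMIs entered under thinning and in the subgroups; otherwise the cause was not tested. Of the 60 values on counts and shares, the other 44 stayed within 1.5 times the count or inside the share's interval. Some of these shares, whose intervals held 0, changed sign: the difference in the members' share was 0.114 points with the gate on thinned cells, 0.104 at 5% mitochondrial UMIs and 0.245 with up to 5 neuronal UMIs, the Hox3 or Hox4 share was -2.58 with the gate on thinned cells, and the share with Gbx2 alone was -1.21 with no neuronal limit. No paired analysis was possible because each group had 1 library. The minimum of 100 UMIs was a chosen limit.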

Other observations

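Some genes of the intermediate and ventral list were found mostly in a few mutant members. Shh, the signal of the floor plate, Foxa1, Foxa2, Nkx2-2, Nkx6-1, Nkx6-2 and Dbx1, a set chosen after the values were seen, together had 2 UMIs in 1 control cell and 49 UMIs in 9 mutant cells, with at most 12 in a cell. The whole list of 16 intermediate and ventral genes had 26 UMIs in the control members and 59 in the mutant members. The rest of that list thus went the other way, with more UMIs in the control members than in the mutant members. Dbx1 had 0 and 13 UMIs, Nkx6-2 0 and 11, and Shh 0 and 8. None reached 100 UMIs.

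Members split by Atoh1 numbered 30 control and 23 mutant cells with a UMI and 52 and 53 without. Gadd45g stood at -2.06 and -1.56 in them, Sparc at 1.496 and 0.51, Sox9 at 1.02 and 0.44, and Nfib at 1.36 and 0.31. The split was made after the values were seen, and the difference between its classes was not tested.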
